A study of Mus musculus with 24 samples.

Results

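The genes described here are 10 enteroendocrine genes of the mouse, 8 coding for peptide hormones (Gcg, Cck, Gip, Sst, Pyy, Nts, Sct and Ghrl) and 2 for granins (Chga and Chgb), the proteins that pack hormones into granules. They were chosen by name, and for each the probe set whose annotation lists that gene alone was read; each of the 10 genes had 1 such probe set, out of 30743 genes measured. Their levels were followed on 24 single-colour Affymetrix arrays in 6 groups of 4. Fetal organoids were cultures from mouse intestine of stage E19 after 3 or 30 days in culture, and adult organoids were cultures from adult intestine at the same times. All organoids were kept in ENR, a medium with EGF, Noggin and R-spondin that maintains intestinal epithelium as budding spheres. The tissue groups were uncultured intestine, newborn (P0) or adult, which also holds mesenchyme, muscle and nerves. The labels name no strain and do not say which stretch of intestine was taken, whether animals were pooled, or whether the 4 replicates of a group came from separate animals or cultures. The p-values therefore measure the spread between these arrays, which may be technical, and precision is limited by how few arrays a group has.

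Enteroendocrine cells are rare, scattered cells of the gut lining that sense the contents of the lumen and release hormones into the blood or to nearby nerves. They arise from crypt stem cells through the transcription factor Neurog3, and the hormones they make depend on the stretch of gut: Gip and Cck are typical of the upper small intestine, Gcg, Pyy and Nts of the lower small intestine and, for Gcg and Pyy, the colon. Ghrelin is made chiefly in the stomach, and somatostatin and several of the other peptides are also made by pancreatic islet cells or neurons. In these bulk samples fewer enteroendocrine cells and less hormone RNA per cell cannot be told apart.

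All 10 genes matched a promoter entry of RefSeq (GRCm38.p6), and the 250 bases before each start were searched on both strands for TGACGT, the core of the cyclic AMP response element that CREB-family factors are known to bind. It was present in Chga, Chgb and Sst, 3 of the 10 genes, against 7.29% of the 27025 genes with a promoter of that length in the table, a gene with several promoters counting once. The full palindrome TGACGTCA, which contains the core on each strand, was present in Chgb and Sst, against 1.77% of the genes. The sequences of the 3 genes with a match are shown. Cck and Gip, which deviated between arrays of the same group together with these 3, had no match. Only these exact letters were searched, and a link between the matches and the levels was not tested. The sequences are written 5′ to 3′ with the core or the palindrome in capitals, and a match is a description of the letters and not a measured binding site.
Chga, chr12:102554791-102554940, plus strand: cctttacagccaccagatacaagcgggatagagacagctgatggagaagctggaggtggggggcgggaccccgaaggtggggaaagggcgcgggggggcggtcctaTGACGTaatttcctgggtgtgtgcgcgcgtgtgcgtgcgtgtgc
Chgb, chr2:132781492-132781641, plus strand: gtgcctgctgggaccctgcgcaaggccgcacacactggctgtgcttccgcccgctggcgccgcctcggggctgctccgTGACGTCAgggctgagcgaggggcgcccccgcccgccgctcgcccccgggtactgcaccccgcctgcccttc
Sst, chr16:23890874-23890903, minus strand: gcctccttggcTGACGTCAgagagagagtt
The Chga and Chgb stretches end at the base before the start. In Chga the core lay 44 to 39 bases before the start, in Chgb the palindrome lay 72 to 65 bases before it, and in Sst 48 to 41 bases before it. The Sst stretch lies inside the span RefSeq gives for the gene. In the windows of the other 7 genes these letters were not found.

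Levels are the deposited log2 signals, on which 1 unit is a doubling; a probe set's level says nothing against the level of another. Array medians ran from 4.18 to 4.43 and those of the negative control probe sets from 3.84 to 4.61. All 24 arrays read above their own negative control median for 9 of the 10 genes, and 22 of 24 did for Pyy. The 95th percentile of the negative controls, which lay between 7.27 and 8.06, was passed on 21 arrays by Gip, on 16 by Sst, on 9 by Nts, on 8 by Sct, on 7 each by Chga and Chgb, on 4 by Gcg and on 0 by Cck, Pyy and Ghrl, so the last 3 genes are dim on this array. Differences are given as log2 ± SE with limma's p, adjusted by Benjamini-Hochberg over all 30743 genes, and a gene is called at an adjusted p under 0.05. Fetal day 3 arrays 2 and 3 and adult tissue array 1 stood apart from their groups. The stomach gene Gkn1 read 6.87, 10.33, 10.15 and 4.64 on the fetal day 3 arrays. The ileal bile acid binding protein gene Fabp6 read 9.62 on adult tissue array 1 and between 4.55 and 4.80 on the other adult tissue arrays. Calls that these arrays decide are given with and without them.

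Fetal day 3 organoids had the lowest mean of the 4 organoid groups for 7 of the 10 genes, the exceptions being Pyy, Nts and Sct. From day 3 to day 30 of fetal culture 5 of the 10 genes rose, where 6.77% of all genes rose, and 0 fell, where 8.73% fell; 15.5% of all genes were called in either direction. The 5 were Chga, Chgb, Gcg, Cck and Gip, by 0.93 to 1.52, and the median difference was 0.95 for the 10 genes and -0.03 for all genes. Without fetal day 3 arrays 2 and 3, which had the highest stomach markers, 0 of these 5 rises were called and Sct was called lower; the median of the 10 genes was then 0.64, and 4.12% of all genes were higher and 5.88% lower. The count was 2 with the spread of the compared groups alone (Chgb and Gcg) and 2 without fetal day 30 array 1 or 3 (Chgb and Gip). It was 3 without fetal day 3 array 2 (Chgb, Gip and, lower, Sct) and 3 without fetal day 3 array 3 (Chgb, Cck and Gip). For these counts of 2 and 3 the share of all genes called is not given here. Mesenchyme and smooth muscle markers moved with this comparison, 9 of 10 being lower at fetal day 30 (median -1.22) and 6 of 10 without fetal day 3 arrays 2 and 3. In adult organoids 0 of the 10 were called between the same days, with 1 at an unadjusted p under 0.05 in limma, where 0.0488% of all genes were called. In the test of whether the fetal change exceeded the adult change, limma called 0 of the 10, with 4 at an unadjusted p under 0.05, where 2.98% of all genes were called, so that a difference between the ages in their change over culture was not shown; without fetal day 30 array 2 Gip was called (1.66, adjusted p = 0.019). At day 3, adult organoids were higher than fetal organoids in 6 genes (Chga, Chgb, Cck, Gip, Sst and Ghrl), where 14.4% of all genes were higher, and lower in Pyy, where 10.1% were lower; 24.5% of all genes were called. Without fetal day 3 arrays 2 and 3, 3 of these 7 genes were called (Cck and Gip higher, Pyy lower) and Sct was called lower, where 9.87% of all genes were higher and 7.22% lower. The mesenchyme and smooth muscle markers were lower in adult than in fetal day 3 organoids in 8 of 10 (median -1.05), and in 3 of 10 without those arrays. The part of mesenchyme in these hormone differences was not tested. At day 30 limma called 0 of the 10 between adult and fetal organoids, with 3 at an unadjusted p under 0.05, where 8.95% of all genes were called. Without fetal day 30 array 1 Gip (0.99, adjusted p = 0.048) and Sst (1.38, adjusted p = 0.035) were called there, and without adult day 30 array 4 Nts (-1.74, adjusted p = 0.025). These comparisons share arrays and are not independent of each other.

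**Figure D1:**
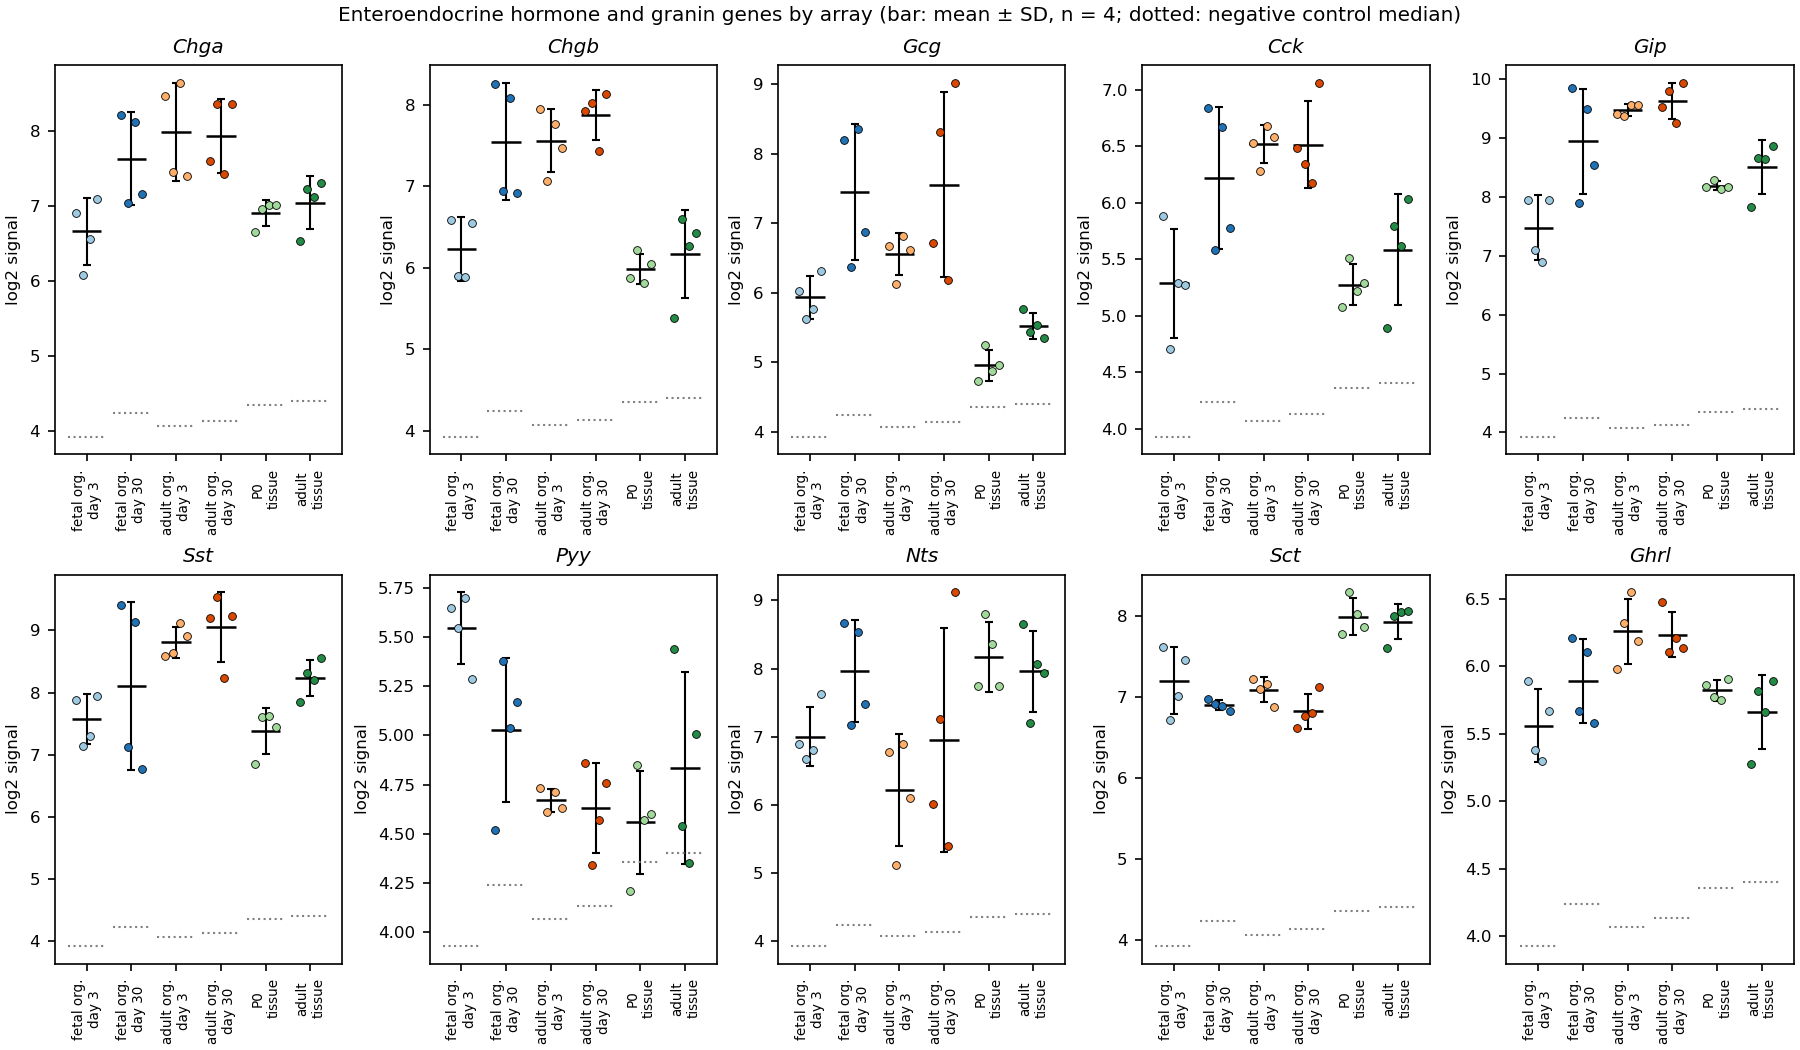
Log2 signal (vertical axes, a separate scale for each gene) of the 10 genes on each of the 24 arrays, by group (horizontal axes); points are arrays, bars are the mean ± SD of 4 arrays and dotted lines the negative control median. Chga, Chgb, Cck, Gip and Ghrl have their 3 highest group means in adult organoids of both days and fetal organoids of day 30, Sct is highest in the tissues, Pyy is highest in fetal organoids of day 3, and Gcg and Nts spread most among adult day 30 organoids.

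Chga codes for chromogranin A, the granule protein used most widely to mark endocrine cells. It read 6.91, 6.08, 6.57 and 7.10 on the fetal day 3 arrays and 8.22, 7.04, 8.13 and 7.16 on the fetal day 30 arrays. In adult organoids it read 8.47, 7.46, 8.64 and 7.41 at day 3 and 7.61, 8.36, 7.43 and 8.37 at day 30. The tissue arrays read 6.66, 6.97, 7.02 and 7.02 at P0 and 6.54, 7.23, 7.12 and 7.31 in adults. Adult day 3 organoids had the highest mean (7.99 ± 0.65, SD, n = 4) and fetal day 3 organoids the lowest (6.67 ± 0.45), and every group overlapped its neighbour in that order. The 4 adult day 3 arrays lay above all 4 fetal day 3 arrays (1.33 ± 0.31, adjusted p = 0.0028) and above all 4 adult tissue arrays (0.95 ± 0.31, adjusted p = 0.02). Fetal organoids rose from day 3 to day 30 by 0.97 ± 0.31 (adjusted p = 0.036), with the arrays of the 2 days overlapping. Without fetal day 3 arrays 2 and 3 the rise was 0.63 (adjusted p = 0.29) and the day 3 difference between adult and fetal organoids 0.99 (adjusted p = 0.072), and the spread of the compared groups alone also ended the call of the rise (adjusted p = 0.085), as did leaving out 1 of fetal day 3 arrays 2 or 3 or fetal day 30 arrays 1 or 3 (0.78 to 0.94). Adult day 30 organoids exceeded adult tissue by 0.89 ± 0.31 (adjusted p = 0.026). Both differences from adult tissue lost their call without adult tissue array 1 (0.78, adjusted p = 0.076, and 0.72, adjusted p = 0.094), with a second quantile normalization (0.76 and 0.74), and without adult day 3 array 1 or 3 or adult day 30 array 2 or 4, respectively.

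Chgb, which codes for chromogranin B, followed a like course. Its levels were 6.59, 5.90, 5.89 and 6.55 in fetal day 3 organoids and 8.25, 6.94, 8.08 and 6.91 in fetal day 30 organoids. In adult organoids they were 7.94, 7.06, 7.76 and 7.47 at day 3 and 7.92, 8.02, 7.43 and 8.13 at day 30. P0 tissue gave 5.87, 6.22, 5.81 and 6.05, and adult tissue 5.38, 6.6, 6.26 and 6.42. The 6 groups fell into 2 tiers: adult day 30, adult day 3 and fetal day 30 organoids had means from 7.55 to 7.88 and overlapped, and fetal day 3 organoids, adult tissue and P0 tissue had means from 5.99 to 6.23 and overlapped, with no array of the lower tier reaching one of the upper. The rise in fetal culture was 1.31 ± 0.29 (adjusted p = 0.0031), a 2.49-fold change. At day 3 the excess of adult over fetal organoids was 1.33 ± 0.29 (adjusted p = 0.0017). Against adult tissue, the differences were 1.39 ± 0.29 (adjusted p = 0.00051) for adult day 3, 1.71 ± 0.29 (adjusted p = 4.5e-05) for adult day 30 and 1.38 ± 0.29 (adjusted p = 6e-04) for fetal day 30 organoids. Without fetal day 3 arrays 2 and 3 the rise in fetal culture was 0.97 (adjusted p = 0.086) and the day 3 difference 0.99 (adjusted p = 0.059).

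Gip codes for the incretin of the upper intestine, which raises insulin release after a meal. It read 7.95, 7.10, 6.90 and 7.94 on the fetal day 3 arrays and 9.85, 7.89, 9.49 and 8.53 on the fetal day 30 arrays. In adult organoids it read 9.40, 9.37, 9.55 and 9.56 at day 3 and 9.53, 9.80, 9.25 and 9.93 at day 30. P0 tissue read 8.17, 8.29, 8.13 and 8.16, and adult tissue 7.83, 8.66, 8.64 and 8.86. The 4 readings of adult day 3 lay within 0.19 of each other, while the fetal day 30 arrays spread over 1.96, arrays 1 and 3 at the adult level and arrays 2 and 4 below it. Fetal day 3 organoids were lowest, below every P0 tissue array, but the difference from P0 tissue was not called (-0.72 ± 0.31, adjusted p = 0.066; -0.80, adjusted p = 0.045, with arrays centred on their median; adjusted p = 0.027 with the spread of the compared groups alone). It was -0.24 (adjusted p = 0.6) without fetal day 3 arrays 2 and 3. The day 3 difference between adult and fetal organoids was 2 ± 0.31, a 4-fold change (adjusted p = 5.6e-05), and remained called without fetal day 3 arrays 2 and 3 (1.53, adjusted p = 0.0055). The rise in fetal culture was 1.47 ± 0.31 (adjusted p = 0.0021); without those arrays it was 1.00 (adjusted p = 0.082), and with the spread of the compared groups alone it was not called (adjusted p = 0.058). The excess of the fetal over the adult change was 1.31 ± 0.44 (adjusted p = 0.13). Adult organoids exceeded adult tissue at day 3 (0.97 ± 0.31, adjusted p = 0.017; 0.75, adjusted p = 0.078, without adult tissue array 1; 0.8, adjusted p = 0.078, with a second quantile normalization) and at day 30 (1.13 ± 0.31, adjusted p = 0.0055).

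Cck codes for cholecystokinin, which contracts the gallbladder, stimulates pancreatic enzyme release and signals satiety. Its levels were 5.88, 4.70, 5.29 and 5.27 in fetal day 3 organoids and 6.84, 5.58, 6.67 and 5.78 in fetal day 30 organoids. Adult organoids gave 6.53, 6.28, 6.68 and 6.58 at day 3 and 6.48, 6.34, 6.17 and 7.06 at day 30. In P0 tissue the arrays read 5.08, 5.51, 5.22 and 5.29, and in adult tissue 4.89, 5.79, 5.62 and 6.03. Adult organoids of both days lay above all arrays of both tissues and of fetal day 3 organoids, while fetal day 30 organoids bridged the gap, with arrays 1 and 3 at the adult organoid level. Adult day 3 organoids exceeded fetal day 3 organoids by 1.23 ± 0.27 (adjusted p = 0.0017; 0.94, adjusted p = 0.048, without fetal day 3 arrays 2 and 3). Fetal organoids rose by 0.93 ± 0.27 (adjusted p = 0.022), a call that ended without fetal day 3 arrays 2 and 3 (0.64, adjusted p = 0.22), without fetal day 3 array 2 or fetal day 30 array 1 or 3 (0.72 to 0.78), and with the spread of the compared groups alone (adjusted p = 0.11). Adult organoids exceeded adult tissue by 0.94 ± 0.27 at day 3 (adjusted p = 0.0088) and by 0.93 ± 0.27 at day 30 (adjusted p = 0.0086).

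Sst codes for somatostatin, which restrains the release of most other gut hormones. It read 7.89, 7.15, 7.31 and 7.94 on the fetal day 3 arrays and 9.41, 7.13, 9.13 and 6.77 on the fetal day 30 arrays. Adult organoids read 8.59, 8.63, 9.12 and 8.91 at day 3 and 9.20, 9.54, 8.24 and 9.23 at day 30. P0 tissue read 6.85, 7.61, 7.63 and 7.45, and adult tissue 7.85, 8.31, 8.21 and 8.55. Fetal day 30 organoids divided, with arrays 1 and 3 within the range of adult organoids and arrays 2 and 4 below every adult organoid and adult tissue array. The difference over fetal culture was 0.54 ± 0.42 (adjusted p = 0.44; 0.20, adjusted p = 0.85, without fetal day 3 arrays 2 and 3). Adult exceeded fetal organoids at day 3 by 1.24 ± 0.42 (adjusted p = 0.033), but this call ended without fetal day 3 arrays 2 and 3 (0.90, adjusted p = 0.26) and without any one of fetal day 3 arrays 2 or 3 or adult day 3 arrays 2, 3 or 4 (adjusted p from 0.051 to 0.094), and with a second quantile normalization (1.12, adjusted p = 0.08). All 4 adult tissue arrays lay above all 4 P0 arrays, and the difference of 0.85 ± 0.42 was called with the spread of the 2 tissues alone (adjusted p = 0.0068) and not with the spread of all 6 groups (adjusted p = 0.14).

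Ghrl codes for ghrelin, the appetite-raising peptide, and stayed within a narrow range near the dim end of the array. Fetal organoids read 5.89, 5.38, 5.30 and 5.67 at day 3 and 6.21, 5.67, 6.11 and 5.58 at day 30. Adult organoids read 5.98, 6.32, 6.55 and 6.19 at day 3 and 6.48, 6.11, 6.21 and 6.14 at day 30. The tissues read 5.86, 5.77, 5.75 and 5.91 at P0 and 5.28, 5.82, 5.66 and 5.89 in adults. Adult organoids of both days lay above all fetal day 3 and all tissue arrays. The differences were 0.70 ± 0.16 between adult and fetal organoids at day 3 (adjusted p = 0.0018; 0.48, adjusted p = 0.074, without fetal day 3 arrays 2 and 3), 0.60 ± 0.16 between adult day 3 organoids and adult tissue (adjusted p = 0.0039) and 0.57 ± 0.16 between adult day 30 organoids and adult tissue (adjusted p = 0.0052). Fetal culture gave 0.33 ± 0.16 (adjusted p = 0.17), 0.42 with arrays centred on their median (adjusted p = 0.046) and 0.11 without fetal day 3 arrays 2 and 3 (adjusted p = 0.73).

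Gcg codes for proglucagon, from which the intestine cuts GLP-1 and GLP-2. It read 6.02, 5.62, 5.77 and 6.32 in fetal day 3 organoids and 8.20, 6.37, 8.36 and 6.87 in fetal day 30 organoids. Adult organoids read 6.67, 6.12, 6.82 and 6.62 at day 3 and 6.71, 8.31, 6.19 and 9.02 at day 30. P0 tissue read 4.73, 5.25, 4.88 and 4.96, and adult tissue 5.77, 5.43, 5.53 and 5.35. The day 30 organoids of both ages were the highest and the most spread groups (means 7.56 ± 1.33 in adult and 7.45 ± 0.98 in fetal cultures, SD, n = 4), and both tissues lay low, with every adult tissue array above every P0 array. Fetal organoids rose by 1.52 ± 0.45 (adjusted p = 0.024), and their day 30 arrays all lay above their day 3 arrays, with 6.37 against 6.32 at the nearest pair. The rise was not called without any one of fetal day 3 arrays 2 or 3 or fetal day 30 arrays 1 or 3 (1.21 to 1.46, adjusted p from 0.058 to 0.096), nor without both fetal day 3 arrays 2 and 3 (1.28, adjusted p = 0.17). Day 30 organoids exceeded adult tissue by 2.04 ± 0.45 in adult cultures (adjusted p = 0.00076), a 4.11-fold difference, and by 1.93 ± 0.45 in fetal cultures (adjusted p = 0.0015). The excess of day 3 organoids was 1.04 ± 0.45 (adjusted p = 0.082) over adult tissue and 0.98 ± 0.45 (adjusted p = 0.082) for fetal organoids over P0 tissue, and both were called with the spread of the compared groups alone (adjusted p = 0.00027 and 0.00089).

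Nts codes for neurotensin, a peptide of ileal N cells and of neurons that slows gut movement and aids fat uptake. Its levels were 6.89, 6.67, 6.81 and 7.63 in fetal day 3 organoids and 8.67, 7.17, 8.53 and 7.48 in fetal day 30 organoids. Adult organoids gave 6.78, 5.11, 6.89 and 6.10 at day 3 and 6.01, 7.26, 5.39 and 9.12 at day 30. P0 tissue gave 7.75, 8.80, 8.36 and 7.74, and adult tissue 8.65, 7.20, 8.06 and 7.93. Adult day 3 organoids were lowest, all 4 below both tissues, and adult day 30 organoids ranged over 3.73 units, from the second lowest to the highest of the 24 arrays. The difference between adult day 3 organoids and adult tissue was -1.74 ± 0.57 (adjusted p = 0.018), 3.35-fold lower in the organoids, and the call ended without adult tissue array 1 (-1.51, adjusted p = 0.062) or without adult day 3 array 2 (-1.37, adjusted p = 0.085). At day 30 the difference between adult organoids and adult tissue was -1.02 ± 0.57 (adjusted p = 0.18), and without adult day 30 array 4 it was -1.74 (adjusted p = 0.005). For fetal day 3 organoids against P0 tissue the difference was -1.16 ± 0.57 (adjusted p = 0.1), which was called with the spread of the compared groups alone (adjusted p = 0.0063); without fetal day 3 arrays 2 and 3 it was -0.90 (adjusted p = 0.32).

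Pyy codes for peptide YY, the satiety peptide of the distal gut, and was highest in the fetal day 3 organoids. It read 5.65, 5.55, 5.70 and 5.29 in fetal day 3 organoids and 4.52, 5.38, 5.04 and 5.17 in fetal day 30 organoids. Adult organoids read 4.73, 4.61, 4.71 and 4.63 at day 3 and 4.86, 4.34, 4.57 and 4.76 at day 30. P0 tissue read 4.21, 4.85, 4.57 and 4.60, and adult tissue 5.44, 4.54, 4.35 and 5.01. Fetal day 3 organoids had the highest mean (5.55 ± 0.18, SD, n = 4), and the other group means lay between 4.56 and 5.03, close to the negative controls. At day 3 adult organoids lay below fetal organoids (-0.88 ± 0.19, adjusted p = 0.0017), and fetal day 3 organoids lay above P0 tissue (0.99 ± 0.19, adjusted p = 0.00031). Both were called without fetal day 3 arrays 2 and 3 (-0.80, adjusted p = 0.029, and 0.91, adjusted p = 0.0073). The difference over fetal culture was -0.52 ± 0.19 (adjusted p = 0.074; -0.64, adjusted p = 0.04, without fetal day 30 array 2).

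Sct codes for secretin, which stimulates bicarbonate release from the pancreas, and was the gene of the 10 that was lower in all 4 organoid-to-tissue comparisons. Fetal organoids read 7.61, 6.71, 7.01 and 7.46 at day 3 and 6.97, 6.91, 6.89 and 6.82 at day 30. Adult organoids read 7.22, 7.10, 7.16 and 6.88 at day 3 and 6.61, 6.76, 6.80 and 7.12 at day 30. The tissues read 7.78, 8.29, 8.02 and 7.86 at P0 and 7.60, 8, 8.05 and 8.06 in adults. Means of both tissues (7.99 and 7.93) stood above those of the 4 organoid groups (6.83 to 7.20), and within each compared pair no organoid array reached a tissue array. The differences were -0.79 ± 0.16 between fetal day 3 organoids and P0 tissue (adjusted p = 0.00037) and, against adult tissue, -0.83 ± 0.16 for adult day 3 (adjusted p = 0.00017), -1.10 ± 0.16 for adult day 30 (adjusted p = 4.6e-06) and -1.03 ± 0.16 for fetal day 30 organoids (adjusted p = 1.5e-05). Leaving out adult tissue array 1 gave -0.94 to -1.21 for the last 3, and leaving out fetal day 3 arrays 2 and 3 gave -0.45 (adjusted p = 0.024) for the first. Fetal day 3 arrays 2 and 3 were also the lowest of their group, and without them Sct lay lower at day 30 than at day 3 of fetal culture (-0.64, adjusted p = 0.0088, against -0.30 ± 0.16, adjusted p = 0.23, with all arrays). Between adult and fetal organoids at day 3 the difference in Sct was -0.11 ± 0.16 (adjusted p = 0.7), and without those arrays -0.44 (adjusted p = 0.047).

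In the order of the 6 group means, neighbouring groups parted without overlap at 4 places: fetal day 30 above fetal day 3 organoids for Chgb, adult above P0 tissue for Gcg, P0 tissue above fetal day 3 organoids for Gip, and adult day 3 organoids above adult tissue for Sst. At every other step of the order, for all 10 genes, the arrays of the 2 neighbours overlapped. The step for Sst was narrow, with 8.59 on the lowest adult day 3 array against 8.55 on the highest adult tissue array. The order was set by these same means, and the share of all genes that part like this was not computed.

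Set side by side by comparison, the genes called between organoids and tissue differed in direction. At day 3, adult organoids were higher than adult tissue in 5 of the 10 genes (Chga, Chgb, Cck, Gip and Ghrl), where 21.9% of all genes were higher, and lower in 2 (Nts and Sct), where 13.4% were lower; 35.3% of all genes were called. Without adult tissue array 1 the count of called genes was 4 in place of 7, with Chgb, Cck and Ghrl higher and Sct lower. The share of all genes called without that array is not given here. At day 30 they were higher in 6, these 5 and Gcg, where 22.8% of all genes were higher, and lower in Sct, where 15.1% were lower; 37.9% of all genes were called. Fetal day 30 organoids were higher than adult tissue in Chgb and Gcg, where 19% of all genes were higher, and lower in Sct, where 14.5% were lower, so that 3 of 10 stood against 33.5% of all genes. Without fetal day 30 array 2 Cck (0.85, adjusted p = 0.021) and Gip (0.79, adjusted p = 0.034) were called there as well. Fetal day 3 organoids were higher than P0 tissue in Pyy, where 30.5% of all genes were higher, and lower in Sct, where 13.8% were lower; 44.3% of all genes were called, and the median was 0.14 for all genes and -0.12 for the 10. Between adult and P0 tissue limma called 0 of the 10 genes and 0 had an unadjusted p under 0.05, where 27.1% of all genes were called. With the spread of the tissues alone, Gcg (0.57, adjusted p = 0.0068) and Sst were called between them. The share of all genes called with that spread is not given here. Genes of other tissue layers moved with these comparisons: 10 of 10 mesenchyme and smooth muscle genes were lower in organoids in each of the 4 comparisons with tissue. The summed signal of these 10, as log2, ranged from 8.6 to 10.5 in organoids, from 12.18 to 12.71 in P0 and from 10.51 to 11.27 in adult tissue, and Dcn, the decorin gene, read 8.88 on adult day 3 array 1 against 4.08 to 4.73 on the other adult day 3 arrays. The part of tissue makeup in the hormone differences was not tested.

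**Figure D2:**
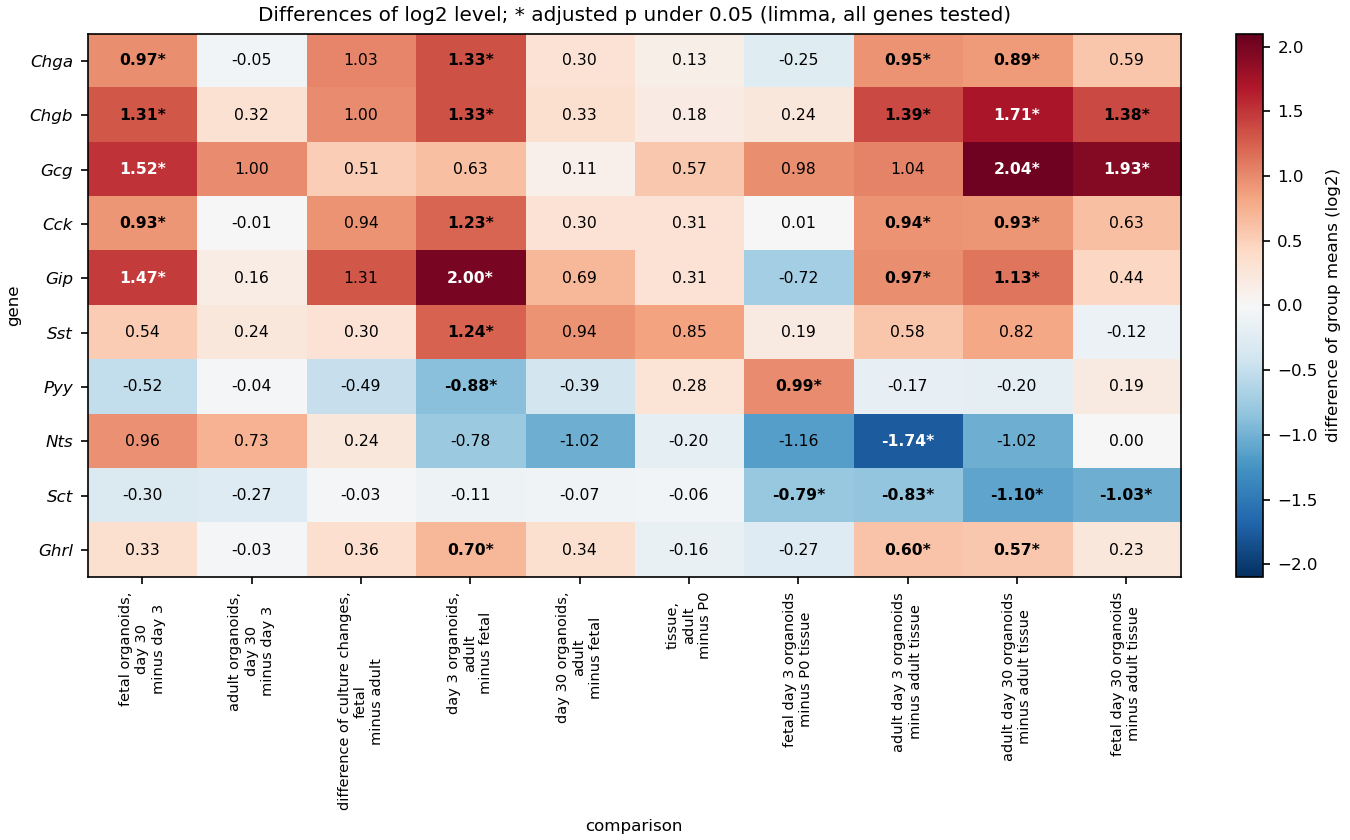
Differences of mean log2 level (first group minus second) for the 10 genes (rows) in the 10 comparisons (columns), with colour from blue for lower to red for higher; bold values with a star have an adjusted p under 0.05 in limma over all genes. The columns of adult day 30 minus day 3 organoids, of the difference of culture changes, of day 30 adult minus fetal organoids and of the tissues hold no star, and Gip at day 3 (2, adult minus fetal) and Gcg in adult day 30 organoids against adult tissue (2.04) are the largest values.

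Arrays of the same group differed in a way that many of the genes shared. Fetal day 30 arrays 1 and 3 both lay above arrays 2 and 4 for 8 of the 10 genes, all but Pyy and Sct. For Sst they read 9.41 and 9.13 against 7.13 and 6.77. The share of all genes that split so was not computed, here or for adult tissue array 1 below. The ileal genes ran the other way on these arrays: Fabp6 read 4.84, 8.98, 4.66 and 9.54, and Slc10a2, the ileal bile acid transporter gene, 3.26, 5.08, 3.83 and 6.80. In adult day 3 organoids they did not: Fabp6 read 10.3, 6.4, 9.02 and 5.6, and Slc10a2 4.52, 3.39, 4.56 and 3.51. Chga, Chgb, Gcg, Nts, Pyy and Sct were also highest on arrays 1 and 3 of that group, while Cck, Gip, Sst and Ghrl were not. Adult tissue array 1 was the highest of its group for Gcg, Pyy and Nts and the lowest for the other 7 genes. On that array Slc10a2 read 7.18 against 3.34 to 3.42 on the others, and Onecut2, a gene of the upper small intestine, 4.31 against 7.52 to 8.01. In adult day 30 organoids, arrays 2 and 4 were high for Gcg and Nts, and Osr2, another gene of the lower small intestine, read 6.39, 8.43, 6.10 and 8.83 there. The other ileal genes did not follow on these arrays: Fabp6 read 4.56, 4.41, 4.80 and 4.92, and Slc10a2 3.58, 3.23, 3.79 and 3.84. Osr2 was chosen after its values were seen. Whether the arrays stand for different stretches of intestine is not stated in the labels, and the part of region in any hormone difference was not tested.

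Taken as deviations from the group means, Chga, Chgb, Cck, Gip and Sst moved together, with Pearson r between pairs from 0.72 to 0.89 over the 16 organoid arrays and from 0.61 to 0.96 over the 8 tissue arrays. Gcg and Nts followed each other in organoids (r = 0.92) and in tissue (r = 0.76). Against Chga, Chgb, Cck and Gip these 2 genes correlated at 0.60 to 0.79 in organoids and at -0.54 to -0.34 in tissue. Against Sst, Gcg correlated at 0.74 and Nts at 0.56 in organoids, and at 0.03 and 0.04 in tissue. Among the 8 tissue arrays, adult tissue array 1 was the highest of its group for Gcg and Nts and the lowest for Chga, Chgb, Cck, Gip and Sst. The r without that array was not computed. Pyy correlated with Chga, Chgb, Cck, Gip and Sst at -0.67 to -0.30 in organoids. The arrays of a group share their processing, so these values are a description.

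**Figure D3:**
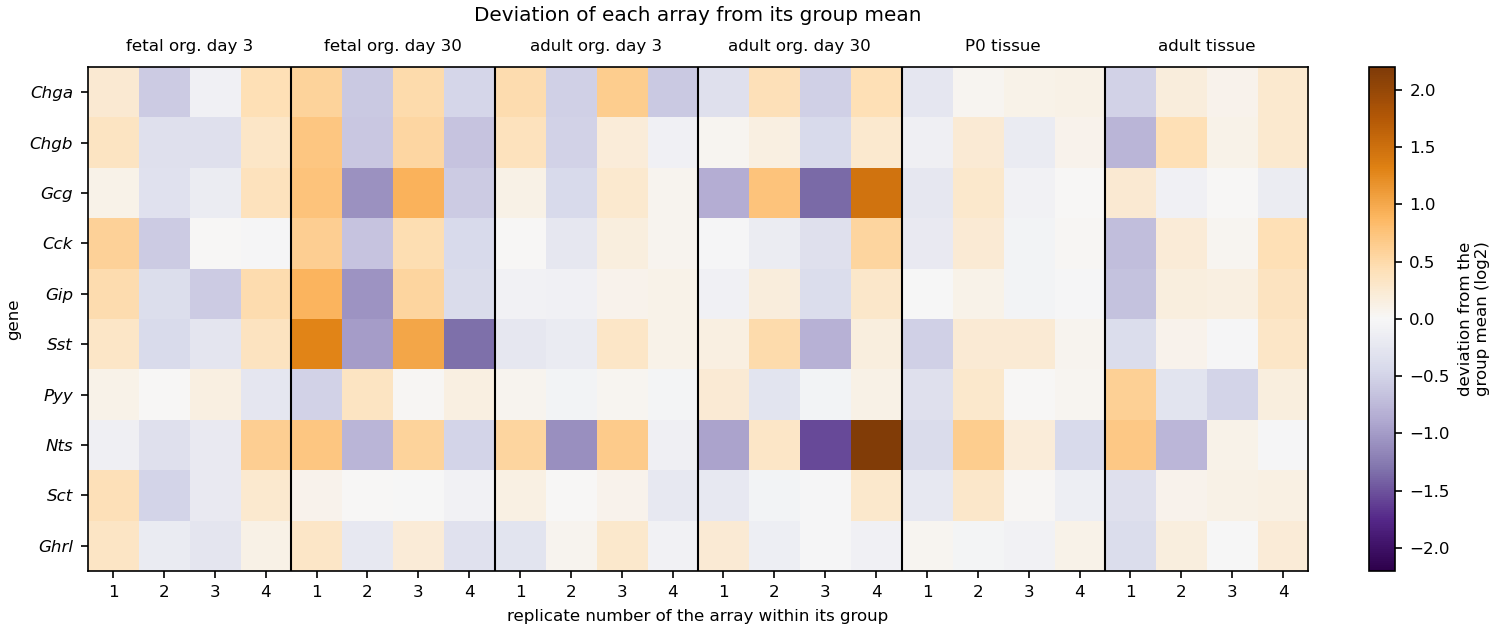
Deviation of each array's log2 level from its group mean (colour, purple below and orange above) for the 10 genes (rows) and the 24 arrays (columns, numbered by replicate within the 6 groups). Fetal day 30 arrays 1 and 3 are orange from Chga to Sst where arrays 2 and 4 are purple, adult tissue array 1 is purple except in Gcg, Pyy and Nts, and Nts on adult day 30 array 4 (9.12 against a group mean of 6.94) is the darkest orange cell.

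Among 19672 genes with a mean above the negative controls, those whose level most resembled each hormone gene over the 24 arrays were searched by Pearson r. For Chga the closest was Tph1 (r = 0.94; 0.86 on deviations from the group means), the serotonin-synthesis gene of enterochromaffin cells, followed by Cck and Chgb (r = 0.90 each). Chgb was closest to Tac1 (r = 0.95; 0.80 on deviations), which codes for substance P, then to Tph1 (r = 0.94) and Cck (r = 0.93). Gcg was closest to Rfx6 (r = 0.94; 0.89 on deviations), a transcription factor of endocrine cells, then to C4bp (r = 0.94) and Wiz (r = 0.92). For Cck the 3 closest were Chgb, 8430429K09Rik (r = 0.92) and Gip (r = 0.91), and for Gip they were Cck, Cenpv (r = 0.89) and Chga (r = 0.89). Sst was closest to Fank1 (r = 0.88), 5730420D15Rik (r = 0.87) and Gip (r = 0.86), and Ghrl to Gip (r = 0.86), Micos13 (r = 0.85) and Fank1 (r = 0.84). Pyy was closest to the ileal gene Slc10a2 (r = 0.83; 0.60 on deviations), then to Mir8102 (r = 0.81) and Cxcl3 (r = 0.78). Nts had no gene above 0.79, with Pi4ka (r = 0.79), Sgms2 (r = 0.78) and Gata5 (r = 0.78) the closest. Sct was closest to Acvrl1 (r = 0.94; 0.64 on deviations), Tacr1 (r = 0.94) and Ggt5 (r = 0.93), of which Acvrl1 is a receptor gene known from blood vessels.

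The transcription factors of the enteroendocrine lineage were followed through 18 measured genes of a list of 22. In fetal culture 9 of the 18 rose, where 6.77% of all genes rose, and 0 fell, where 8.73% fell, with a median difference of 0.36 against -0.03 for all genes. With fetal day 3 arrays 2 and 3 left out, 4 of the 18 were called, all higher and all among the 9, where 4.12% of all genes were higher. Rfx6 rose by 1.71 ± 0.34 (adjusted p = 0.00096), Isl1 by 0.87 ± 0.18 (adjusted p = 0.0015), Neurog3, the factor that commits cells to the lineage, by 0.73 ± 0.15 (adjusted p = 0.002), and Pou2f3, a factor of tuft cells, by 0.90 ± 0.23 (adjusted p = 0.0096). Without those arrays the 4 called were Foxa2 (0.88, adjusted p = 0.00025), Rfx6 (1.39, adjusted p = 0.033), Isl1 (0.91, adjusted p = 0.012) and Neurog3 (0.66, adjusted p = 0.035). Pou2f3 was then not called (0.80, adjusted p = 0.095). In adult culture 0 of the 18 were called, where 0.0488% of all genes were. At day 3, 8 were higher in adult than in fetal organoids, where 14.4% of all genes were higher, and 1 was lower, where 10.1% were lower; without fetal day 3 arrays 2 and 3 the counts were 3 and 0. Neurog3 was higher by 0.97 ± 0.15 (adjusted p = 6.8e-05), and by 0.91 without those arrays (adjusted p = 0.0032). Foxa1, which is expressed in many epithelia, was lower (-1.43 ± 0.32, adjusted p = 0.002), and without those arrays it was not called (-0.58, adjusted p = 0.12). Adult day 30 organoids were higher than adult tissue in 11, where 22.8% of all genes were higher, and lower in 0, where 15.1% were lower. Among the 11 were Sox4 (2.16 ± 0.14, adjusted p = 1.8e-11), which is not restricted to endocrine cells, and Neurog3 (1.26 ± 0.15, adjusted p = 4.8e-07). Rfx6 lay at 4.13 in fetal day 3 organoids and 4.27 in adult tissue, close to the negative controls.

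Among 13 other gut peptide and amine genes, 3 rose in fetal culture, where 6.77% of all genes rose, and 4 fell, where 8.73% fell. Tac1 rose by 1.38 ± 0.22 (adjusted p = 0.00012) and more than in adult culture (1.17 ± 0.31 between the changes, adjusted p = 0.039), and Tph1 rose by 0.82 ± 0.25 (adjusted p = 0.03). The rise of Tac1 was called without fetal day 3 arrays 2 and 3 (1.12, adjusted p = 0.0084), while its excess over adult culture (0.91, adjusted p = 0.23) and the rise of Tph1 (0.65, adjusted p = 0.2) were not. Iapp, the islet amyloid peptide gene, fell (-1.66 ± 0.20, adjusted p = 3.9e-06), as did Gal, the galanin gene (-0.84 ± 0.07, adjusted p = 3.4e-08). Against adult tissue, adult day 3 organoids were higher in Tac1 (2 ± 0.22, adjusted p = 1e-07), Tph1 (0.82 ± 0.25, adjusted p = 0.012) and Gast, the gastrin gene (0.77 ± 0.13, adjusted p = 2.7e-05). Between the tissues 2 of the 13 were higher in adults, where 14.9% of all genes were higher, and 3 were lower, where 12.1% were lower. Among the lower were Insl5, a peptide gene of colonic L cells (-1.01 ± 0.15, adjusted p = 2.3e-05), and Gal (-0.87 ± 0.07, adjusted p = 1.4e-09).

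Of 21 genes of hormone processing and secretory granules, 3 rose in fetal culture, where 6.77% of all genes rose, and 3 fell, where 8.73% fell, with a median difference of 0.01; without fetal day 3 arrays 2 and 3 the counts were 1 and 2. Pcsk1, the convertase that cuts prohormones, rose by 1.25 ± 0.27 (adjusted p = 0.0025), and was higher in adult than fetal organoids at day 3 (0.91 ± 0.27, adjusted p = 0.016; 0.87, adjusted p = 0.09, without fetal day 3 arrays 2 and 3) and in adult day 30 organoids than in adult tissue (1.02 ± 0.27, adjusted p = 0.0041). Syt7, a calcium sensor of exocytosis, fell in fetal culture (-0.79 ± 0.08, adjusted p = 5e-07). Adult tissue was lower than P0 tissue in 8 of the 21, where 12.1% of all genes were lower, and higher in 0, where 14.9% were higher. Lower were Cpe (-1.53 ± 0.36, adjusted p = 0.0023) and Snap25 (-0.79 ± 0.16, adjusted p = 0.00072). Neurons also use both genes, and Snap25 is a member of the enteric neuron list too, so it counts in both lists. Of the 11 measured members of the neuron list, 8, Snap25 among them, were lower in adult tissue, against the same 12.1% of all genes. Elavl4 was lower by -1.29 ± 0.08 (adjusted p = 1.7e-11). The part of neurons in these differences was not tested.

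**Figure D4:**
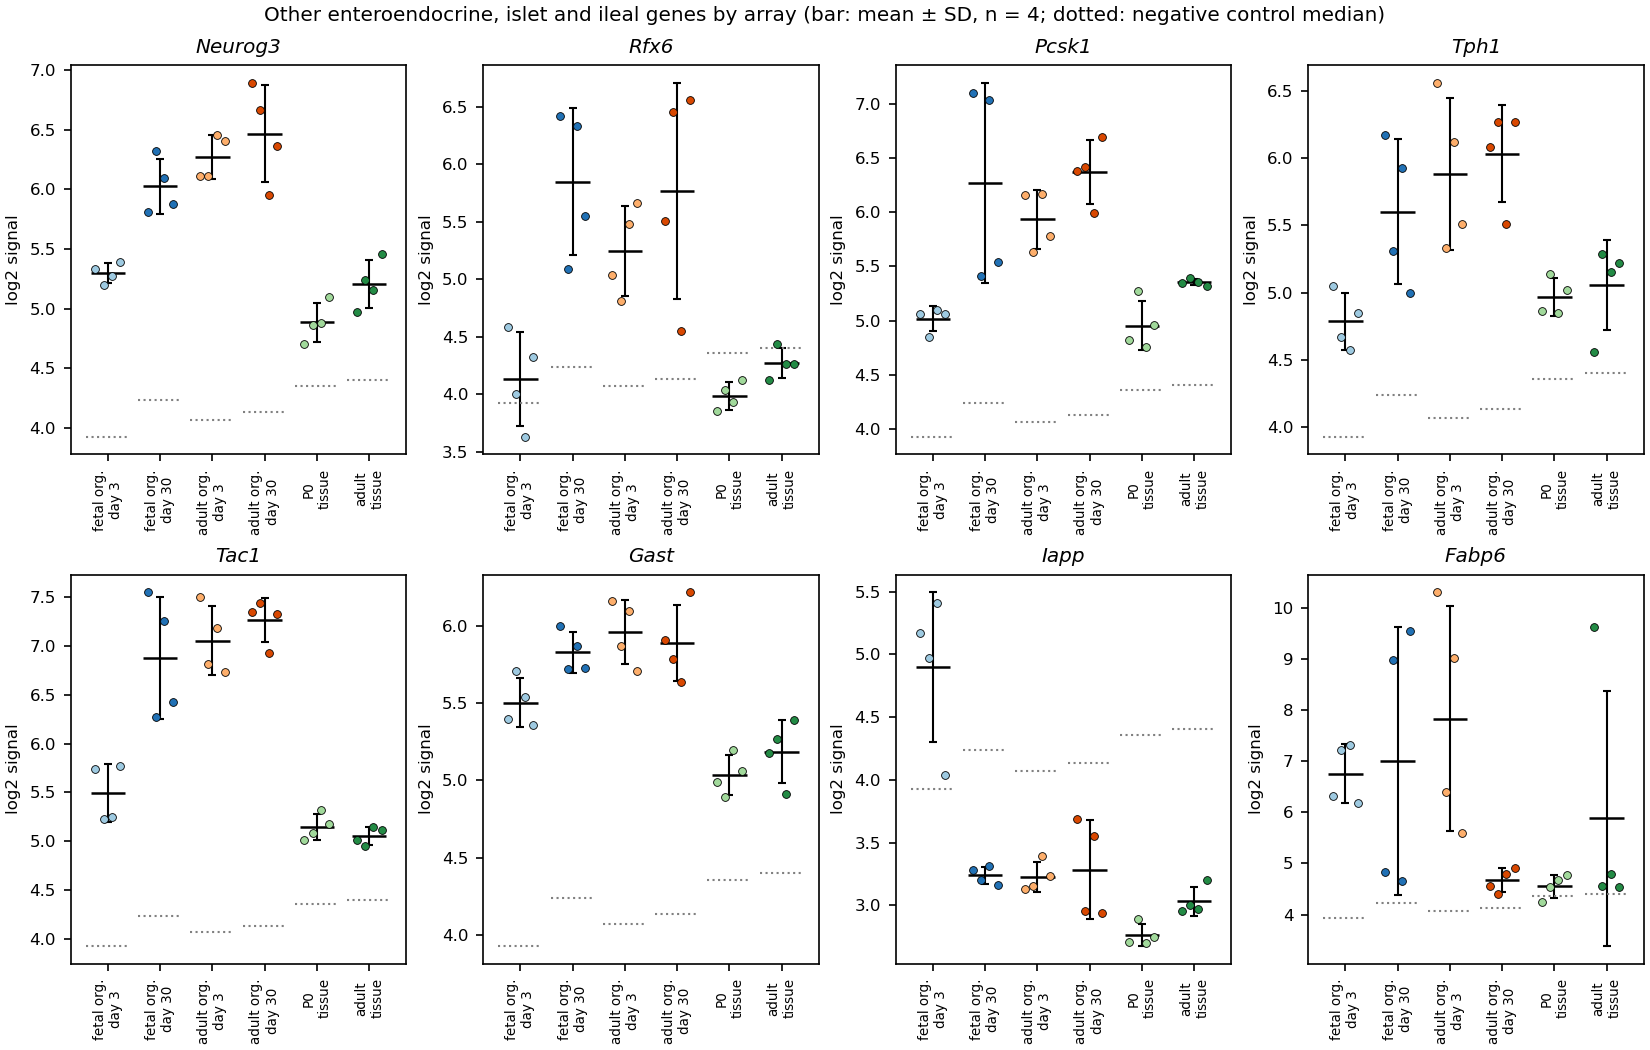
Log2 signal (vertical axes, separate scales) on each array by group (horizontal axes) for 8 genes that are not among the 10: the lineage factors Neurog3 and Rfx6, the convertase Pcsk1, Tph1, Tac1, Gast, the islet gene Iapp and the ileal gene Fabp6; points are arrays, bars the mean ± SD of 4 and dotted lines the negative control median. Neurog3, Tac1 and Gast are higher on every organoid array of day 30 than on any tissue array, the mean of Iapp lies above the control line in fetal day 3 organoids alone, and Fabp6 splits the arrays of 3 groups.

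Of 16 receptors, channels and transporters by which enteroendocrine cells sense nutrients, 4 rose in fetal culture, where 6.77% of all genes rose, and 0 fell, where 8.73% fell; without fetal day 3 arrays 2 and 3, 3 were called higher. Slc5a1, the sodium-glucose transporter gene of both enterocytes and enteroendocrine cells, rose by 1.73 ± 0.27 (adjusted p = 8.3e-05; 1.14, adjusted p = 0.0061, without those arrays), and Gpr119, a lipid-sensing receptor gene, by 0.59 ± 0.19 (adjusted p = 0.041; 0.47, adjusted p = 0.23, without those arrays) from a level under the negative controls. Ffar4, a long-chain fatty acid receptor gene, was higher in fetal day 3 organoids than in P0 tissue (2.39 ± 0.27, adjusted p = 3.8e-07). Among 20 receptors and enzymes that receive or inactivate the hormones, organoids were lower than adult tissue in 5 at adult day 3, where 13.4% of all genes were lower, in 7 at adult day 30, where 15.1% were lower, and in 5 at fetal day 30, where 14.5% were lower. They were higher in 0 at each, where 21.9%, 22.8% and 19% of all genes were higher. Dpp4, the peptidase that inactivates GLP-1 and Gip, was lower in adult day 3 organoids than in adult tissue (-2.53 ± 0.21, adjusted p = 1.3e-09) and was higher in adult than in P0 tissue (1.55 ± 0.21, adjusted p = 3.9e-06). Glp2r, the receptor gene for GLP-2, known from subepithelial cells and neurons, was also lower in adult day 3 organoids than in adult tissue (-0.90 ± 0.11, adjusted p = 3.5e-07), as was Glp1r (-0.70 ± 0.12, adjusted p = 7.3e-05).

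Markers of stomach and pancreas moved with the fetal day 3 group. All 13 measured stomach markers were higher in fetal day 3 organoids than in P0 tissue, where 30.5% of all genes were higher, and 8 of 13 were lower at fetal day 30 than at day 3, where 8.73% of all genes were lower. Their summed signal, as log2, ranged over the 4 arrays from 9.61 to 13.98 in fetal day 3, 8.82 to 12.72 in fetal day 30, 9.48 to 10.38 in adult day 3 and 8.98 to 9.90 in adult day 30 organoids, and from 8.13 to 8.31 in P0 and 8.33 to 8.77 in adult tissue. Of 9 pancreatic acinar markers, 8 were higher in fetal day 3 organoids than in P0 tissue (median 2.14) and 7 were lower at fetal day 30 than at day 3 (median -1.78). Their summed log2 signal ranged from 9.25 to 12.8 in fetal day 3, 10.03 to 11.71 in fetal day 30 and 8.86 to 9.95 in adult organoids, and from 7.89 to 9.06 in the tissues. Such a sum follows the brightest genes of its list. The mean log2 level of the 9 ranged from 5.07 to 7.84 in fetal day 3, 4.96 to 5.21 in fetal day 30 and 4.82 to 5.98 in adult organoids, and from 4.46 to 4.87 in the tissues. Prss2, a trypsinogen gene, read 6.20, 8.73, 8.90 and 4.01 on the fetal day 3 arrays, high on the arrays where Gkn1 was high. With those 2 arrays left out, 4 of 13 stomach and 3 of 9 acinar markers were lower at fetal day 30 than at day 3, where 5.88% of all genes were lower. Against P0 tissue, 11 of 13 stomach (median 1.54) and 7 of 9 acinar markers (median 0.79) were still higher without them, where 26.4% of all genes were higher. The values without fetal day 3 arrays 2 and 3 are therefore not free of stomach and pancreatic marker signal. Of 8 islet markers, 6 were higher and 1 lower in fetal day 3 organoids than in P0 tissue, where 30.5% and 13.8% of all genes were, and their summed signal ranged from 8.59 to 9.03 in fetal day 3 organoids, from 8.48 to 9.36 in the other organoid groups and from 9.54 to 10.58 in the tissues. This sum follows the brightest of the listed genes, and Pdx1 is also listed as a marker of the proximal small intestine. The mean log2 level of the 8 ranged from 5.35 to 5.75 in fetal day 3 organoids, from 5.01 to 5.51 in the other organoid groups and from 5.16 to 5.53 in the tissues. The higher sum in the tissues was thus not seen in this mean. Iapp read 5.17, 4.97, 5.41 and 4.04 on the fetal day 3 arrays and from 2.70 to 3.20 on the tissue arrays. Ins2 read 6.98, 6.67, 6.75 and 6.48 on the fetal day 3 arrays and from 5.96 to 6.60 on the tissue arrays. Of the 10 hormone and granin genes, 8 read lower on both fetal day 3 arrays 2 and 3, where Gkn1 was high, than on arrays 1 and 4, all but Cck and Pyy. The share of all genes that did so was not computed. Pyy, the gene that was highest in fetal day 3 organoids, read 5.65 and 5.29 on arrays 1 and 4 and 5.55 and 5.70 on arrays 2 and 3. The mean log2 level of 7 colon markers ranged from 5.09 to 5.33 in fetal day 3 organoids. On the other organoid arrays this mean was at most 4.57. It ranged from 4.46 to 4.61 in P0 and from 4.96 to 5.33 in adult tissue. Of the 7 colon markers, 4 were lower at fetal day 30 than at day 3, and 3 without fetal day 3 arrays 2 and 3. The part of colon in the Pyy level was not tested. Enteric neuron markers were lower in fetal day 3 organoids than in P0 tissue in 8 of 11, where 13.8% of all genes were lower, with a summed log2 signal of 8.58 to 8.67 against 9.36 to 9.65, and 11 epithelial markers read a mean log2 level of 9.65 or more on every array. The part of stomach, pancreatic or nerve cells in the hormone levels was not tested; the values without fetal day 3 arrays 2 and 3 stand beside the genes above.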

How the data were processed

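The authors deposited log2 signals; the submitters' processing notes name Affymetrix Expression Console and RMA. Versions, the build and the set of arrays normalized in 1 run: not given in the sources used here. RMA pulls arrays to 1 distribution, so a shift of most genes would be lost. Of 72688 probe sets, 6732 were controls and 31216 of the other 65956 named 1 gene; 1534 naming several and 33206 without a symbol were left out. For 364 genes with several probe sets, the one with the highest mean was used. Symbols (1439 updated) and promoters came from RefSeq tables (GRCm38.p6).

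A single limma model (version 3.58.1, R 4.3.3) of 6 group means covered the 24 arrays, with 18 residual degrees of freedom and 4.25 from the prior. The 10 comparisons were tested two-sided with Benjamini-Hochberg adjustment over 30743 genes. The code was tested on simulated data. All 10 hormone and granin genes are named; of the other lists, up to 4 called genes of largest difference that lie above background in a compared group, printed in part, and as similar genes the 3 of highest Pearson r. Single values of regional, stomach and islet markers are named where they bear on a hormone gene. Foxa2 is named because it was called without fetal day 3 arrays 2 and 3. The members and lists were chosen with earlier results of these data known. Alternatives were centring each array on its median, quantile normalizing again, a filter on low levels (16981 genes kept), a trended robust prior, the mean of a gene's probe sets, the spread of the compared groups alone, a replicate block, each array left out, and fetal day 3 arrays 2 and 3 left out together, chosen after seeing the data. Python 3.11.15 was used for tables and figures.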

Additional observations from a re-analysis of the deposited data

Results flagged for a closer look

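In 60 groups of 4 arrays (10 genes in 6 groups), the lowest or highest array was checked for a gap to its nearest neighbour beyond Dixon's critical share of the group's range, which chance passes in about 1 in 20 groups; 2 passed. Chga read 6.66 on P0 tissue array 1, against 6.97 to 7.02 on the other P0 arrays, a gap of 0.86 of the range. Sct read 7.60 on adult tissue array 1, against 8 to 8.06 on the other adult tissue arrays, a gap of 0.87 of the range; the same array was the lowest of its group for 7 of the 10 genes.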

How the results depend on the processing

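Of 31 called values, 18 kept their call under every alternative run, 13 lost it under at least 1 and 0 reversed; 20 others were called in an alternative alone. The count of called genes out of 10 in fetal culture, 5, was 2 with the spread of the compared groups alone, 1 without both fetal day 3 arrays 2 and 3 (chosen after seeing the data), which was Sct, called lower, with 0 of the 5 rises called, and 2 to 6 with 1 array left out. For adult minus fetal organoids at day 3 it was 7, 4 without both those arrays (3 of the 7, and Sct) and 6 to 7 with 1 array left out. With 1 array left out the counts ranged from 0 to 1 for the difference of culture changes, 0 to 2 at day 30, 2 to 3 for fetal day 3 organoids against P0 tissue, 4 to 7 for adult day 3, 6 to 7 for adult day 30 and 3 to 5 for fetal day 30 organoids against adult tissue; 4 was reached without adult tissue array 1 and 5 without fetal day 30 array 2. With the compared groups alone, the counts were 2 between the tissues and 5 for fetal day 3 organoids against P0 tissue. The share of all genes called is not given here for the counts with the compared groups alone or with 1 array left out. These counts can therefore not be set against it. Of values never called, 15 changed sign in an alternative. Sct at day 3 (adult minus fetal, -0.11) was called without both fetal day 3 arrays 2 and 3 (-0.44, adjusted p = 0.047) and ranged from -0.27 to 0.03 with 1 array left out, 0.03 being without fetal day 3 array 1. The labels do not say whether the replicate numbers pair samples. Deviations of same-numbered arrays correlated at r from -0.36 to 0.31, which cannot settle it. A replicate block left the counts at 5 in fetal culture and 7 at day 3. The causes of these changes were not tested. Cck, Pyy and Ghrl stayed under the negative controls' 95th percentile, which limits what their differences can show.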
